A study of Mus musculus with 3 samples.

Results

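The 10 genes described here encode proteins that splice pre-mRNA or bind RNA: Sf1, Sf3b2, Snrpd1, Tra2b, Rbm4, Rbm4b, Rbm14, Elavl1, Ncbp2 and Parn. They were taken by gene symbol, with the highest row of each gene identifier, from 38205 gene identifiers per library, and all 10 had an estimate marked OK in all 3 libraries. RNA was sequenced from LSK cells, the fraction without lineage markers and with Sca1 and c-Kit on its surface that holds blood stem and progenitor cells. The cells were sorted from the fetal liver of C57Bl/6 embryos at E14.5, and those of 4 to 5 embryos of a genotype were pooled into 1 library of total RNA. One library came from embryos homozygous for the DNMT3B7 transgene, another from hemizygous embryos and another from wild-type (WT) embryos. DNMT3B7 is a shortened protein made from DNMT3B, the gene of an enzyme that methylates DNA. The sources used here do not say which promoter drives the transgene or which cells express it, and its expression was not analysed here. With 1 library per genotype there is no spread between embryos, so no test between genotypes was made and every comparison below is between 3 libraries.

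Introns are removed from pre-mRNA by the spliceosome, a machine built from small nuclear ribonucleoproteins (snRNPs) that first marks the ends of the intron and the branch point within it. Proteins that bind exons and introns then raise or lower the use of single splice sites, and others bind the finished mRNA at its cap, its 3′ untranslated region or its poly(A) tail and set its export, translation and lifetime. Splicing factors are needed by all dividing cells, and mutations in genes of the branch-point machinery are known from human blood diseases.

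Values are deposited FPKM (fragments scaled by transcript length and sequencing depth) divided by 1 common factor for all libraries, which brings the mean sum over genes to about 1000292. They are therefore relative levels per length, and their ratios between libraries are as deposited. About 2303880 fragments in the homozygous, 2997620 in the hemizygous and 2997800 in the WT library stood behind the listed genes, estimated from the low values and the median transcript length per gene, and intervals given below cover the counting error of these estimates only. Values could be read for genes in 10 segments that begin at the starts of chromosomes and on the mitochondrial genome, 1454 in all. The segment of chromosome 16 ran over most of that chromosome, 611 of its 644 protein-coding genes, and held 826 of the 1454 genes. Of 15 constitutive genes in those segments that were left out of the fit, 14 were high and the median value was 523. Elsewhere 12 of 293 were high, and 140 had 0 in every library. None of the 7 genes that mark the sorted cells lay in a segment (Ly6a, which encodes Sca1, was listed at 0 in all 3 libraries), so the cell type was not checked on them. Of 33 marker genes looked at, the 5 in a segment belong to other cell types. The collagen gene Col4a1 of vessel walls had a value of 45.2 in the homozygous, 31.7 in the hemizygous and 25.5 in the WT library. Col4a2 had 54.1, 36.4 and 27.1 in the same order of libraries, and Gp5, of platelets and their precursors, 30.1, 17.7 and 16.5. The hepatocyte gene Ahsg and the platelet gene Gp1bb were at 5.50 or below in every library. Their part in the results was not tested. The 13 mitochondrial mRNAs held 64.8% of the summed values of these genes in the homozygous, 72.0% in the hemizygous and 74.9% in the WT library.

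All 10 genes lay in the segments. The median nuclear gene in the segments, over those that reached 1, had a value of 58.4 in the homozygous, 62.4 in the hemizygous and 62.4 in the WT library. Parn stood just below that level and the other members above it. Sf1 ranked 14 of 920, 13 of 922 and 16 of 915 nuclear genes in the same order of libraries. In every library Sf1, Sf3b2, Snrpd1 and Tra2b lay at 909 or above, and Rbm14, Ncbp2 and Elavl1 between 233 and 298. Rbm4b and Rbm4 lay between 119 and 144, and Parn stood apart below them, between 53.2 and 58.3. From its highest to its lowest member the group spanned a ratio of 35.7 in the homozygous, 41.2 in the hemizygous and 29.9 in the WT library. The differences between genotypes were far smaller. In bulk RNA from sorted cells, fewer cells of a type and less RNA per cell cannot be told apart. A member's highest library exceeded its lowest by a ratio between 1.04 for Sf3b2 and 1.26 for Sf1, with a median of 1.10, where the median over the 519 nuclear genes that reached 50 in a library was 1.15.

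**Figure D1:**
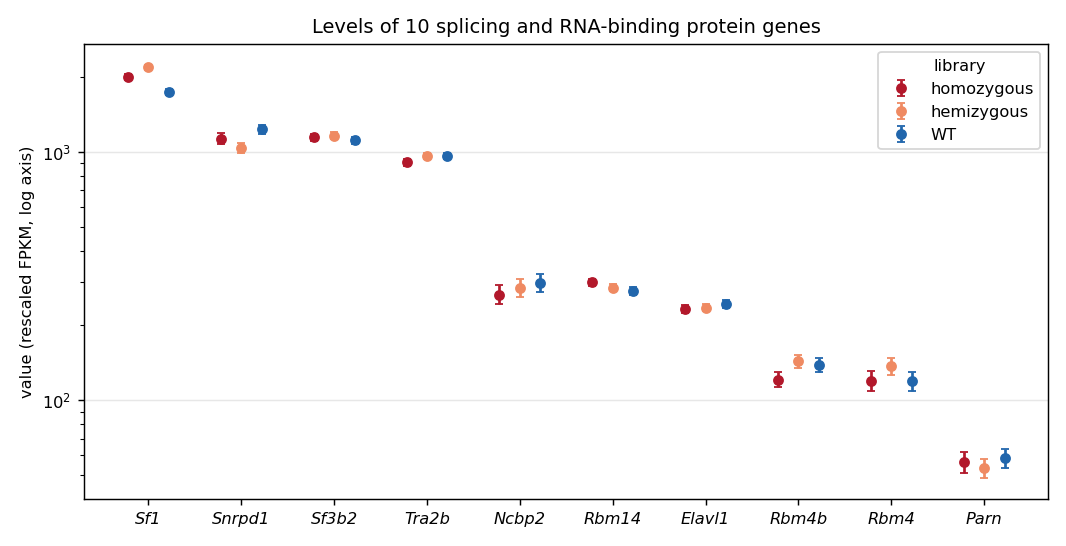
Level of each gene in the homozygous, hemizygous and WT library, as rescaled FPKM on a log axis, with 95% counting intervals as bars. The 3 libraries of a gene lie close together, between 2006 for Sf1 and 56.2 for Parn in the homozygous library, and Sf1 shows the widest gap.

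Sf1 (ENSMUSG00000024949) encodes splicing factor 1, which recognises the branch point before the U2 snRNP takes its place. It had a value of 2006 in the homozygous and 2189 in the hemizygous library, against 1741 in the WT library. Both transgenic libraries were above WT and the 3 counting intervals did not meet (1952 to 2062, 2135 to 2244 and 1692 to 1792). Sf1 was the highest of the 10 genes in all 3 libraries. Sf3b2 (ENSMUSG00000024853), a subunit of the SF3b complex that holds the U2 snRNP at the branch point, was nearly level, with 1145 in the homozygous, 1160 in the hemizygous and 1112 in the WT library. Its log2 ratios to WT were 0.04 (95% counting interval -0.03 to 0.11) and 0.06 (-0.01 to 0.13). The ratio of Sf1 to Sf3b2, which no scaling of a library alters, was 1.75 in the homozygous, 1.89 in the hemizygous and 1.57 in the WT library.

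Snrpd1 (ENSMUSG00000002477) encodes SmD1, a protein of the ring of Sm proteins around the RNA of spliceosomal snRNPs. It had a value of 1129 in the homozygous and 1038 in the hemizygous library, against 1231 in the WT library. The order of the libraries was the reverse of that of Sf1: WT was highest and the hemizygous library lowest. The log2 ratio of Sf1 was 0.33 (0.28 to 0.38) for hemizygous over WT, and that of Snrpd1 was -0.25 (-0.34 to -0.15). As a ratio of levels, Sf1 stood 1.78 times as high as Snrpd1 in the homozygous, 2.11 times in the hemizygous and 1.41 times in the WT library. In the order of levels Snrpd1 came second in the WT library and after Sf3b2 in both others, though their intervals overlapped in the homozygous library.

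Tra2b (ENSMUSG00000022858) encodes Tra2-beta, a protein related to the SR family that binds exons rich in purines and promotes their inclusion. Its value was 909 in the homozygous, 959 in the hemizygous and 961 in the WT library. The hemizygous and WT libraries were within counting error (log2 ratio -0.00, interval -0.06 to 0.05), and the homozygous library lay a little below WT (-0.08, interval -0.14 to -0.02). That difference depended on the scaling of the libraries. It came within counting error by sum scaling without mitochondrial mRNAs, by median-ratio scaling and less the median of the chromosome. Under sum scaling with the mitochondrial mRNAs included, the homozygous library lay above WT by more than counting error.

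The RBM proteins carry RNA recognition motifs, and Rbm4 (ENSMUSG00000094936) and Rbm4b (ENSMUSG00000033760) are close copies of each other that regulate alternative splicing. Rbm4 had a value of 120 in the homozygous, 137 in the hemizygous and 119 in the WT library. Rbm4b had 121 in the homozygous, 144 in the hemizygous and 139 in the WT library. The hemizygous library was the highest for both, while the lowest was WT for Rbm4 and homozygous for Rbm4b. The log2 ratio of homozygous over WT was 0.01 (interval -0.17 to 0.19) for Rbm4 and -0.19 (-0.33 to -0.06) for Rbm4b. The level of Rbm4 relative to Rbm4b was 0.989 in the homozygous, 0.952 in the hemizygous and 0.857 in the WT library.

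How reads were shared between these copies bears on both values. Aligned over 1071 bases, the coding sequences of Rbm4 (chr19:4784293-4793901, minus strand, GRCm38) and Rbm4b (chr19:4756497-4767065, plus strand) are 86.1% identical, and their first 425 bases are the same. A fragment from that stretch, 39.2% of the Rbm4 coding sequence, matches both genes equally well. Over whole transcripts the share is smaller: 7.45% of the 50-base stretches of Rbm4 occur in Rbm4b, and 3.72% of those of Rbm4b occur in Rbm4. Bases 366 to 515 of each coding sequence (from GENCODE M21, counted from the start codon) are shown because they hold the point where the copies part, and capitals mark the 15 bases that differ:
Rbm4: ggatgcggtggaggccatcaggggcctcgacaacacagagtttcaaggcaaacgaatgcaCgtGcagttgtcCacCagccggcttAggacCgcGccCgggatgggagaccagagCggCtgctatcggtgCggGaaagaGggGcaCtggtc
Rbm4b: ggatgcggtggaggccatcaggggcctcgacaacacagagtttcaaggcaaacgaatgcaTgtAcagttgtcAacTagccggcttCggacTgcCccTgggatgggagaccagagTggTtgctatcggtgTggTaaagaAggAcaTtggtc
Fragments from the lower-case run at the left cannot be assigned by sequence, while those that cross the capitals can. The sources used here do not say how the authors' counting split shared reads, so the single values of Rbm4 and Rbm4b are uncertain. The 2 values added to 241 in the homozygous, 280 in the hemizygous and 258 in the WT library. As values are per length and the genes differ in length (median transcripts of 1197 bases for Rbm4 and 1944.5 for Rbm4b), that sum also moves with the split. The log2 ratio of the sum was -0.10 (interval -0.21 to 0.01) for homozygous over WT, 0.12 (0.02 to 0.22) for hemizygous over WT and -0.22 (-0.32 to -0.11) for homozygous over hemizygous. With each value weighted by its length, so that the sum follows the fragments of both genes, these ratios were -0.13 (-0.23 to -0.02), 0.10 (-0.00 to 0.20) and -0.23 (-0.33 to -0.12). The intervals of both ratios to WT thus included 0 in 1 form of the sum and not in the other, while that between the transgenic libraries lay below 0 in both.

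Another gene model claims the same reads. Gm21992, on the same strand, overlaps exons of Rbm14 and Rbm4 and contains the whole coding sequence of Rbm4, 1083 bases. Of the 50-base stretches of all Rbm4 transcripts, 57.5% also occur in another gene, and Gm21992 holds all of those. Gm21992 was listed at 255 in the homozygous, 292 in the hemizygous and 284 in the WT library, above Rbm4 in each. Rbm4 and Gm21992 together gave 375 in the homozygous, 429 in the hemizygous and 403 in the WT library. The log2 ratio of that sum for homozygous over WT was -0.11 (interval -0.20 to -0.01), and -0.11 with the values weighted by length, against 0.01 for Rbm4 alone. Of the stretches of Rbm4b 33.9% occur in other genes, 29.5% in Gm37206, a model on the opposite strand that was not analysed here.

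Rbm14 (ENSMUSG00000006456) encodes a protein of paraspeckles that also acts as a coactivator of transcription, and its gene lies next to Rbm4 on chromosome 19. It had a value of 298 in the homozygous, 284 in the hemizygous and 276 in the WT library, and was the 1 member with its highest value in the homozygous library. Its log2 ratio for homozygous over WT was 0.11 (interval 0.04 to 0.18). Of its 50-base stretches 17.7% occur in other genes, 15.4% in Gm21992. Summed over Rbm14, Rbm4, Rbm4b and Gm21992, the locus had 794 in the homozygous, 856 in the hemizygous and 818 in the WT library, as a sum of values per length. Its log2 ratio was -0.04 (interval -0.09 to 0.01) for homozygous over WT, 0.07 (0.02 to 0.12) for hemizygous over WT and -0.11 (-0.16 to -0.06) for homozygous over hemizygous. Weighted by length, the same ratios were 0.00 (-0.05 to 0.05), 0.05 (0.01 to 0.10) and -0.05 (-0.10 to -0.00). The summed locus was thus highest in the hemizygous library in both forms.

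Elavl1 (ENSMUSG00000040028) encodes HuR, which binds AU-rich elements in mRNAs and is known to stabilise them. Its value was 233 in the homozygous, 236 in the hemizygous and 244 in the WT library. The counting interval of each of its 3 log2 ratios included 0, and the widest difference, homozygous over WT, was -0.06 (interval -0.13 to 0.01). Exons of Ccl25, a chemokine gene on the opposite strand, overlap those of Elavl1. Ccl25 was listed at 42.4 in the homozygous, 60.9 in the hemizygous and 35.4 in the WT library, and with no strand setting given, reads of these exons cannot be told apart.

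Ncbp2 (ENSMUSG00000022774) encodes the small subunit of the nuclear cap-binding complex, which holds the mRNA's cap during splicing and export. Its value was 266 in the homozygous, 283 in the hemizygous and 296 in the WT library. The log2 ratio of homozygous over WT was -0.15 (interval -0.33 to 0.02) on an estimated 481 and 560 fragments, so its order of libraries was not beyond counting error. Senp5, on the opposite strand with overlapping exons, was at 75.3 in the homozygous, 82.9 in the hemizygous and 62.1 in the WT library. Of the 50-base stretches of Ncbp2, 5.49% occur in other genes, 3.62% in Senp5. Parn (ENSMUSG00000022685) encodes the poly(A)-specific ribonuclease, which trims the poly(A) tail from its 3′ end. Its value was 56.2 in the homozygous, 53.2 in the hemizygous and 58.3 in the WT library, the lowest level of the 10 genes. None of the 3 intervals of Parn excluded 0, and none of its 50-base stretches occurs in another gene.

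The remaining members share little sequence with other genes. The share of 50-base stretches found elsewhere was 0.321% for Sf1, 2.72% for Sf3b2, 5.56% for Snrpd1 and 7.98% for Tra2b. For Snrpd1 the only match was the pseudogene Gm14277, listed at 0 in all 3 libraries. Sf1 overlaps exons of Gm14966, an antisense gene at 17.1 in the homozygous, 34.8 in the hemizygous and 29.4 in the WT library, far below Sf1 itself.

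Homozygous embryos carry the transgene on both alleles, and their library was first set against WT. None of the 10 genes differed by 1.5-fold, a size passed by 12.5% of the 955 genes compared, the 13 mitochondrial mRNAs included, or by 2-fold, passed by 4.4%. Over the 942 nuclear genes among them, these shares were 11.3% and 4.46%. All of these shares take in genes down to a value of 1, whose ratios vary more by counting, while every member was above 50. They are therefore not matched to the level of the members. The log2 ratios ran from -0.19 for Rbm4b to 0.20 for Sf1, with a median of -0.06 beside -0.04 over all genes compared. Of the members 4 lay above and 6 below 0, and 43.8% of all genes compared lay above 0. Sf1 (0.20, interval 0.15 to 0.26) and Rbm14 (0.11) were higher by more than counting error, and Snrpd1 (-0.12, interval -0.22 to -0.03), Tra2b and Rbm4b were lower. That is 2 of 10 higher, where 12.8% of the genes compared had an interval above 0, and 3 of 10 lower, where 17.9% had one below. Low genes have few fragments and wide intervals, so these shares are not matched to the members and a higher share of members is not read as an excess. Sf1 ranked 49 from the top of the 507 genes that reached 50. From the 5th to the 95th percentile those genes lay between -0.38 and 0.30, which is inside 1.5-fold. Scaled to the same sum with the mitochondrial mRNAs included, the log2 ratios of this comparison lay about 0.56 higher and all 10 were positive, those of Rbm4b, Snrpd1 and Tra2b among them. The calls below 0 also depended on the other scalings: with the mitochondrial mRNAs left out of the sum, Snrpd1 (-0.05), Tra2b (-0.01) and Rbm4b (-0.12) were all within counting error. Median-ratio scaling left 1 interval below 0, that of Rbm4b (-0.15), and ratios less the median of the same chromosome left that of Snrpd1 (-0.12). The intervals of Sf1 and Rbm14 lay above 0 under all 4 of these scalings, and so did that of Sf3b2, which had included 0 as deposited. With the mitochondrial mRNAs included, the median was 0.50 over the 10 members and 0.49 over all genes compared. Sf1 (0.76), Rbm14 (0.67) and Sf3b2 (0.60) then passed 1.5-fold, and the share of all genes past it was not counted.

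**Figure D2:**
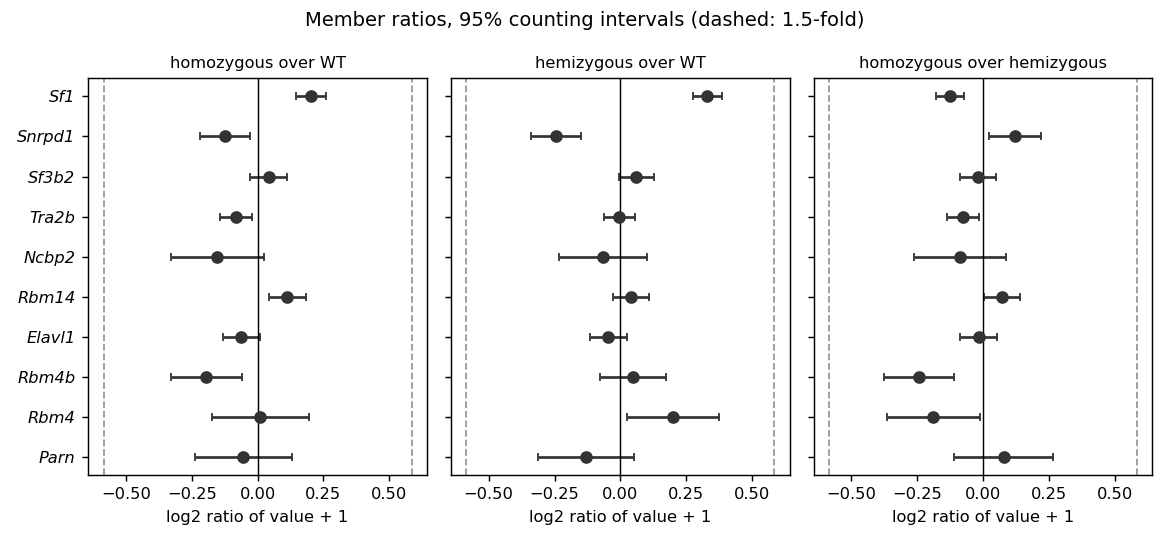
Log2 ratio of value + 1 for each gene in the 3 comparisons, with 95% counting intervals as bars and dashed lines at 1.5-fold. All 30 points lie inside the dashed lines, and Sf1 at 0.33 and Snrpd1 at -0.25 in the middle panel are the farthest from 0.

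The hemizygous library, with a single transgenic allele, was set against WT in the same way. None of the 10 genes passed 1.5-fold, against 7.97% of the 954 nuclear and mitochondrial genes compared, and none passed 2-fold, against 2.73%. Here too the shares take in lower genes and are not matched to the level of the members. The log2 ratio of Sf1, 0.33, ranked 31 from the top of the 515 genes that reached 50, and that of Snrpd1, -0.25, ranked 49 from the bottom. Both were inside the span of -0.32 to 0.36 between the 5th and the 95th percentile, a span that itself lies inside 1.5-fold. Rbm4 was higher as well (0.20, interval 0.02 to 0.37). For the sum of Rbm4 and Gm21992 the interval included 0, at 0.089 (-0.001 to 0.178), or 0.082 (-0.007 to 0.171) weighted by length. With Rbm4 taken by its own value, 2 of 10 intervals lay above 0, against 15.4% of the genes compared. Below 0 lay 1 of 10, against 13.9%. These shares are not matched for fragments either. The median over the 10 genes was 0.02, and 0.02 over all genes compared. Under sum scaling with the mitochondrial mRNAs included, the ratios lay about 0.20 higher, and Snrpd1 (-0.04) was the 1 member left below 0, within counting error. The median over all genes compared was then 0.22. Under the other 3 scalings the interval of Snrpd1 stayed below 0, and that of Sf1 lay above 0 under all 4. Rbm4 came within counting error (0.16) once the median of its chromosome was taken off.

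Between the homozygous and the hemizygous library the comparison asked what a second transgenic allele adds. It shares its libraries with the other comparisons, so its ratios are not independent of theirs. None of the 10 genes passed 1.5-fold, against 11.4% of the 962 nuclear and mitochondrial genes compared, or 2-fold, against 4.57%. Those shares again take in lower genes. The 512 genes that reached 50, as all members did, lay between -0.40 and 0.25 from the 5th to the 95th percentile, inside 1.5-fold. Rbm4b had the ratio farthest from 0, -0.24 (interval -0.37 to -0.11), followed by Rbm4 (-0.19, interval -0.37 to -0.01), Sf1 (-0.13, interval -0.18 to -0.07) and Snrpd1 (0.12, interval 0.02 to 0.22). In all, 2 intervals lay above 0, Snrpd1 and Rbm14 (0.07), where 8.11% of the genes compared did, and 4 below, Sf1, Tra2b (-0.08), Rbm4 and Rbm4b, where 18.1% did. As before, the shares are not matched for fragments and no excess is read from them. The median was -0.05 over the 10 genes and -0.06 over all genes compared. Under sum scaling with the mitochondrial mRNAs included, the ratios lay about 0.36 higher and all 10 were positive, those of Sf1, Tra2b, Rbm4 and Rbm4b among them. The median over all genes compared was then 0.29. Tra2b and Rbm4 were within counting error under each of the other 3 scalings, and Sf1 (-0.03) was when the median of its chromosome was taken off. Rbm4b kept its interval below 0 under those 3, and Snrpd1 and Rbm14 kept theirs above 0 under all 4.

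**Figure D3:**
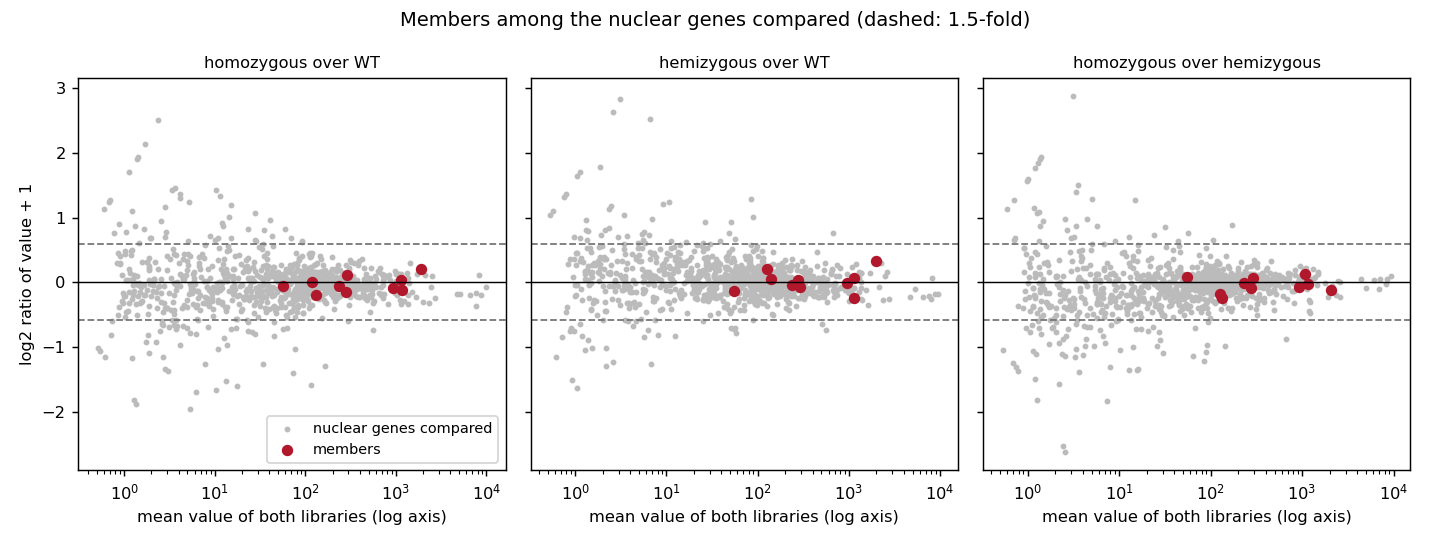
Log2 ratio of value + 1 against mean value (log axis) for all nuclear genes compared, in grey, with the 10 genes in red and dashed lines at 1.5-fold. Most red points sit in the right part, where the grey cloud is narrow, while Parn lies just below the median level. None lies beyond the dashed lines.

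With 0, 1 and 2 transgenic alleles the libraries can also be read as a series. In 4 genes the hemizygous value lay between the others: Rbm14 was highest in the homozygous library, and Tra2b, Elavl1 and Ncbp2 were lowest there. As deposited, the step from WT to hemizygous was within counting error in each of them. For Elavl1 and Ncbp2 no pair of libraries differed beyond it. That is 4 of 10, and 32.9% of the 519 nuclear genes that reached 50 did the same. The highest library was the homozygous one for 1 member, the hemizygous one for 4 and WT for 5, against 24.1%, 37.6% and 38.3% of those genes. Sf1, Snrpd1, Rbm4b, Rbm4, Parn and Sf3b2 had the hemizygous library at one end.

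The place of the genes on the chromosomes bears on which could be read at all. Of the 10, 5 lie on chromosome 19 (Rbm4b, Rbm4, Rbm14, Sf3b2 and Sf1), 3 on chromosome 16 (Parn, Tra2b and Ncbp2), Elavl1 on chromosome 8 and Snrpd1 on chromosome 18. Sf1 and Snrpd1, the pair with the widest ratios between libraries (closely followed by Rbm4b), were also the pair nearest to the end of a segment, each with 2 protein-coding genes between it and the break. The last gene before the break was Rasgrp2 on chromosome 19 and Mib1 on chromosome 18. The other members lay at least 64 protein-coding genes inside their segment. The part of that nearness in the differences was not tested. Within their chromosomes, Sf1 lay 0.28 above the median of 140 genes on chromosome 19 for homozygous over WT and 0.29 above that of 139 for hemizygous over WT. Snrpd1 lay 0.12 and 0.22 below the medians of 35 genes on chromosome 18 in the same comparisons.

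**Figure D4:**
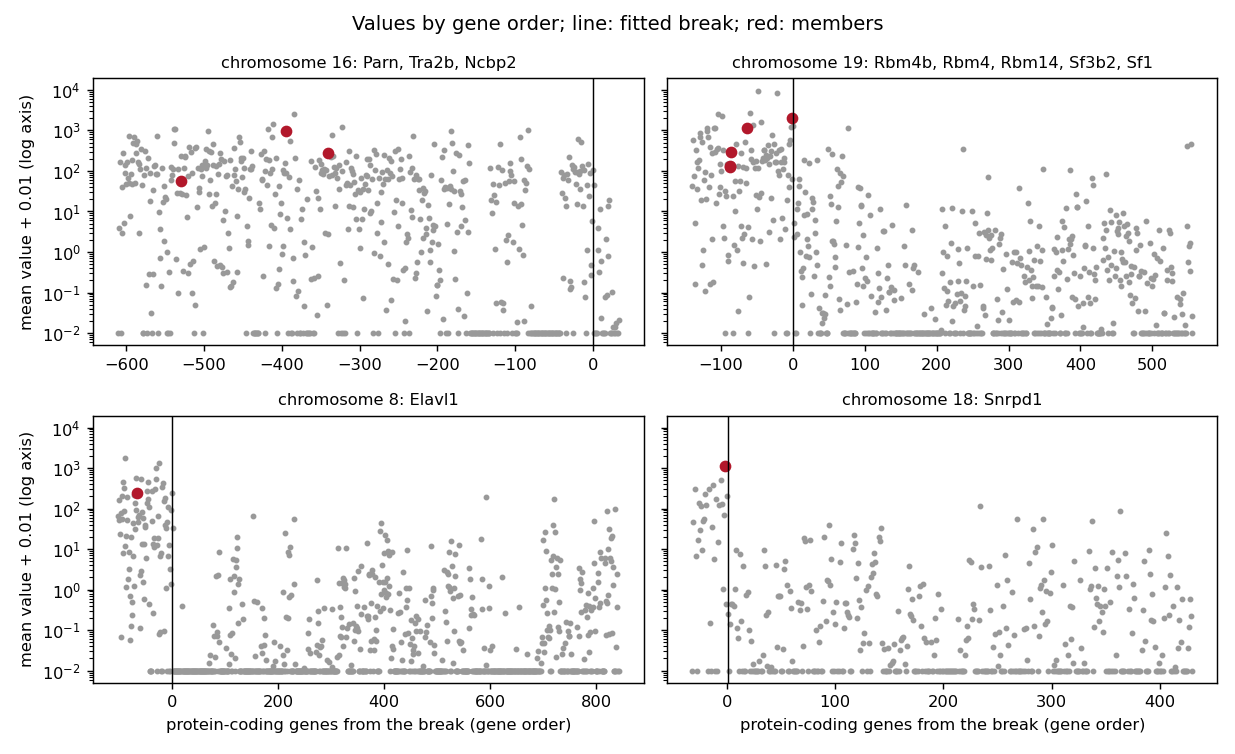
Mean value over the 3 libraries plus 0.01 (log axis) of protein-coding genes by their order along 4 chromosomes, counted from the fitted break (vertical line), with the 10 genes in red. High values run up to the break and thin out after it, and Sf1 and Snrpd1 stand 2 genes before it.

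The other genes of the pathway were thinly covered. The 15 lists of spliceosome, SR, hnRNP, RBM, 3′ end, cap, export, stability and decay genes held 338 distinct genes, of which 23 lay in a segment, the 10 members among them. No gene of the hnRNP list (38 genes) or of the U1 snRNP list (9 genes) did. Of the 313 other genes outside the segments, 113 had 0 in every library and the median value was 0.082, though some were listed as high as the members. None of them is compared, because values outside the segments could not be read. Of the 13 other genes inside, 12 could be compared, and none passed 1.5-fold in any of the 3 comparisons. Their median log2 ratio was -0.03 for homozygous over WT, 0.04 for hemizygous over WT and -0.07 for homozygous over hemizygous, close to the medians of the 10 members.

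Son, a large protein of nuclear speckles with SR-like repeats, was the highest of them, at 571 in the homozygous, 664 in the hemizygous and 598 in the WT library. Its log2 ratio was -0.06 (counting SE 0.02) for homozygous over WT, 0.15 (0.02) for hemizygous over WT and -0.22 (0.02) between the transgenic libraries. Xab2, a subunit of the catalytic spliceosome, was at 320 in the homozygous, 333 in the hemizygous and 315 in the WT library. In both, the hemizygous library was the highest. Sart1, a protein of the U4/U6.U5 tri-snRNP, was at 195 in the homozygous, 198 in the hemizygous and 198 in the WT library. Dgcr8, the partner of Drosha in cutting primary microRNAs, was at 192 in the homozygous, 224 in the hemizygous and 211 in the WT library. The order of libraries in Dgcr8, with the hemizygous highest and the homozygous lowest, was that of Son and of Rbm4b. For Dgcr8 the counting intervals of both ratios to WT included 0. Igf2bp2, an mRNA-binding protein of fetal tissues, was at 160 in the homozygous, 159 in the hemizygous and 143 in the WT library. Both transgenic libraries lay above WT, with counting intervals of the ratios that included 0. Scaf8, which binds the tail of RNA polymerase II, had 179 in the homozygous, 191 in the hemizygous and 175 in the WT library. Its relative Scaf4 had 62.3 in the homozygous, 66.2 in the hemizygous and 66.7 in the WT library. Neither differed from WT beyond counting error. Upf3a, of nonsense-mediated decay, had 151 in the homozygous, 152 in the hemizygous and 156 in the WT library. Thoc1, of the THO export complex, had 128 in the homozygous, 118 in the hemizygous and 129 in the WT library. Thoc1 lies on chromosome 18, as does Snrpd1, and shared its order of libraries, but the counting interval of every ratio of Thoc1 included 0. Rbm48, a protein of minor intron splicing in humans, had 76.4 in the homozygous, 71.2 in the hemizygous and 71.6 in the WT library. Dgcr14, a spliceosome-associated protein, had 39.9 in the homozygous, 43.2 in the hemizygous and 45.3 in the WT library. For both, the intervals of the ratios to WT included 0. Rbm11, named after its values were seen, was below a value of 5 in all 3 libraries.

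**Figure D5:**
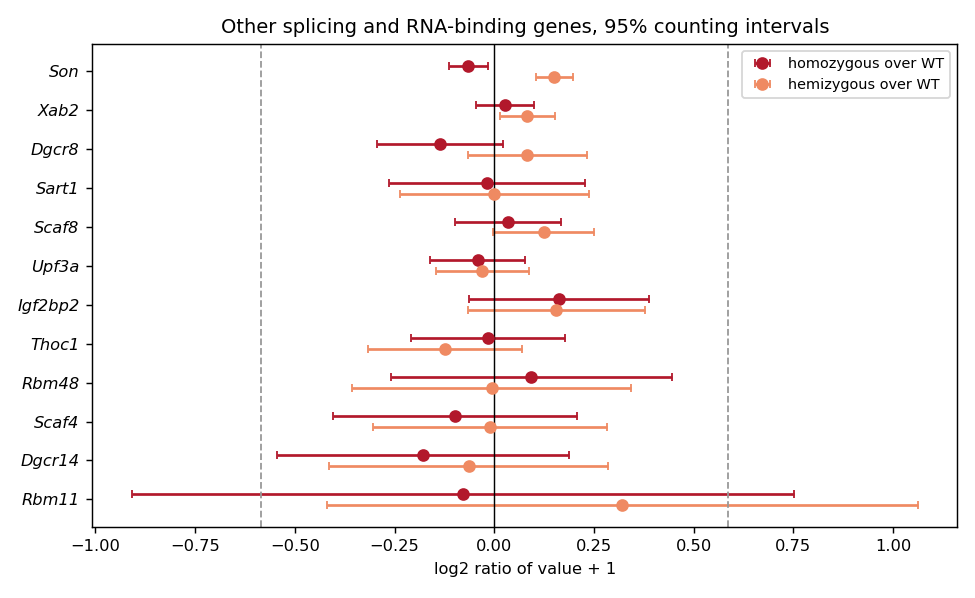
Log2 ratio of value + 1 to WT for the 12 other genes of the pathway that could be compared, homozygous over WT above hemizygous over WT, with 95% counting intervals as bars and dashed lines at 1.5-fold. All points lie within 1.5-fold, and the widest interval is that of Rbm11.

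Promoters were read for 8 of the 10 genes from RefSeq (GRCm38.p6), as the 250 bases before the start of the gene. CG dinucleotides, the sites that DNMT enzymes methylate, were counted in them, while methylation itself was not analysed here. The counts were 31 for Elavl1, 22 for Rbm4b, 19 each for Sf1, Tra2b and Rbm14, 17 for Sf3b2, 10 and 8 for the 2 starts of Rbm4 and 6 for Parn, where the median of 32851 promoters was 6. The promoters of the highest and the lowest of the 10 genes are shown because they stand for both ends of the order of levels, with CG in capitals. They lie at chr19:6363440-6363689 on the plus strand for Sf1 and at chr16:13668171-13668420 on the minus strand for Parn:
Sf1: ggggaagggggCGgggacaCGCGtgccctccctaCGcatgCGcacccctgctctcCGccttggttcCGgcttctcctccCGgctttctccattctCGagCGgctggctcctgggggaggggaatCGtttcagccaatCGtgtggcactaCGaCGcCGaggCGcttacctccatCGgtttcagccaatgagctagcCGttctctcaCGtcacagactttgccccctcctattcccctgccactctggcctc
Parn: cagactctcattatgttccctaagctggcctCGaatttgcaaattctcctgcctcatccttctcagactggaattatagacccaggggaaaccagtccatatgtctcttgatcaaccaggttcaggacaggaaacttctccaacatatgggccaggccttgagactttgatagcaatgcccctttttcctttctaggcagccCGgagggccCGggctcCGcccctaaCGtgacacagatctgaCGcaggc
The CGs of Sf1 are spread over most of the window, while 5 of the 6 of Parn stand in its last stretch before the start. The letters CCAAT, on either strand, occur in 6 of the 8 genes (Elavl1, Rbm14, Rbm4, Rbm4b, Sf1 and Sf3b2) and in 33.8% of all promoters of that length. CCGGAAG occurs in Sf3b2 alone, against 6.91% of promoters, and TATAAA in Rbm4 alone, against 12.4%. These motifs were chosen after the sequences had been seen, and a match describes the letters only.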

How the data were processed

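Per the file headers, the authors deposited FPKM and an estimation status for every gene. The submitters' processing notes name TopHat2, Bowtie2 and Cufflinks as tools and mm9 as the mouse build, and give no versions. Annotation, strand setting and fragment length are not stated in the sources at hand. Each table held 38230 rows and no read counts. FPKM were divided by 1 factor for all libraries and compared as log2 of value + 1 in genes that reached 1 in a library of the pair. The pseudocount understates differences of low genes.

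The libraries of 3 genotypes were compared pairwise, with 1 pooled library each and no test.

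Genes were kept when they lay before a break fitted by maximum likelihood on each chromosome, between a run of high values (mean deposited FPKM of at least 200000 for 20% or more of the protein-coding genes) and the rest, with a gain in log likelihood of at least 5. The members, the other splicing lists and constitutive genes were left out of that fit, and its settings were chosen while looking at the values. Gene order, transcript lengths and coding sequences came from GENCODE M21 (GRCm38, not the build of the files), in which 95.4% of the identifiers were found.

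One fragment was read from low values as the step of value times transcript length less 200 bases. Whole multiples, within 0.05, made up 72.8% of 728 low values in the homozygous, 69.7% of 780 in the hemizygous and 72.2% of 712 in the WT library. By chance a step fixed beforehand would give 10%, while this step was chosen on the same values to make that share high. Counting intervals (95%) follow from the median transcript length of a gene, treat fragments as independent molecules and leave out differences between embryos and library making. The fits were tested on simulated data.

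The members and gene lists were chosen with earlier results of these data known. Named genes were the 10 members and every other list gene that could be compared and reached 5 in a library. Alternatives were other pseudocounts, scalings, minimums, row choices and transcript lengths. Python 3.11.15 with numpy 2.4.6, pandas 2.3.3, scipy 1.17.1 and Biopython 1.88 was used.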

Additional observations from a re-analysis of the deposited data

How the results depend on the processing

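Scaling each library to the same sum over the genes compared, mitochondrial mRNAs included, moved the log2 ratios of the members up by about 0.56 for homozygous over WT, 0.20 for hemizygous over WT and 0.36 for homozygous over hemizygous. The medians of the 10 members became 0.50, 0.22 and 0.31, beside 0.49, 0.22 and 0.29 over all genes compared. For homozygous over WT, 3 members and 3 other splicing genes passed 1.5-fold as higher. The share of all genes past that fold was not counted under that scaling. Of the ratios whose counting interval excluded 0, 7 changed sign under that scaling: Rbm4b (0.36), Snrpd1 (0.43) and Tra2b (0.48) for homozygous over WT, and Sf1 (0.23), Tra2b (0.28), Rbm4 (0.16) and Rbm4b (0.11) for homozygous over hemizygous. The mitochondrial share of the sum, 64.8% in the homozygous, 72.0% in the hemizygous and 74.9% in the WT library, enters that scaling by construction.

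Under the other 6 settings (pseudocounts of 0.1 and 10, sum scaling without mitochondrial mRNAs, median-ratio scaling, summed rows, and ratios less the median of the same chromosome, the last chosen after seeing the data) none of 180 values of member ratios took the other sign where the interval had excluded 0, and 13 moved by more than their counting error. Which intervals excluded 0 did change with scaling, as counted after seeing the data. The share of all genes compared was not counted under the other scalings, so no excess of members is read. With mitochondrial mRNAs included in the sum, 10, 7 and 8 members lay above 0 (2, 2 and 2 as deposited) and 0, 0 and 0 below (3, 1 and 4 as deposited), for homozygous over WT, hemizygous over WT and homozygous over hemizygous. Without them these counts were 3, 4 and 2 above and 0, 1 and 2 below, by median-ratio scaling 3, 2 and 2 above and 1, 1 and 2 below, and less the median of the same chromosome 3, 1 and 3 above and 1, 2 and 1 below. With the longest transcript the estimated fragments were 4812340 in the homozygous, 5945600 in the hemizygous and 5662980 in the WT library, which would narrow the intervals, most of all for Sf1. Minimums of 0 and 5 left each count of genes past a fold as it was. No paired analysis was possible because each genotype had 1 library and the labels give no replicate numbers. For the same reason no library could be left out.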
